A study of Mus musculus with 14 samples.

Results

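The 10 genes of the unfolded protein response described here were Hspa5, Xbp1, Atf4, Atf3, Ddit3, Trib3, Herpud1, Dnajb9, Sdf2l1 and Creld2, taken by symbol from the 25212 genes of the count table. All 10 had a row of their own, and all 10 were among the 14252 genes with enough counts to be tested. The unfolded protein response is the set of pathways by which a cell adjusts to unfolded protein in the endoplasmic reticulum (ER). The membrane sensor IRE1 cuts Xbp1 mRNA so that it is spliced into the message of an active transcription factor, PERK phosphorylates eIF2alpha and thereby favours translation of ATF4, and ATF6 is cleaved in the Golgi to release a transcription factor. Hepatocytes secrete most plasma proteins and hold much rough ER, and the pathway is well known in fatty and obese liver. Gene counts add spliced and unspliced Xbp1 together and do not measure translation or cleavage, so the values below are of mRNA abundance only.

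RNA was sequenced from the livers of 14 male C57BL/6 mice that were put on a high-fat diet (HFD) at 6 weeks of age and stayed on it for 12 weeks before allocation and afterwards. The 5 DIO mice (diet-induced obese) had no operation, the 4 GB-IL mice had the gallbladder joined to the ileum with the common bile duct tied off, and the 5 RYGB mice had a Roux-en-Y gastric bypass. All livers were taken at the time labelled 8 weeks. No liver of a mouse with a sham operation was analysed here, so the operation itself and the diversion cannot be told apart. Total counts lay between 18223135 and 28656631 per liver. Values per gene are counts in each 1e6 (CPM) after TMM scaling, which corrects for the few abundant genes that take different shares of each library, and errors are SD over livers unless named.

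Hepatocyte markers were abundant in every library. The 10 hepatocyte markers, led by Alb, summed to between 87008 CPM of the total count in GB-IL liver 3 and 153114 in RYGB liver 5. GB-IL liver 1 stood apart by RNA of other tissues. Its 10 pancreatic acinar genes summed to 1658 CPM of the total count, against 7.92 to 37.3 in the other 13 livers. Ctrb1, a chymotrypsinogen gene and the most abundant of them, had 16475 counts there and no more than 8 in any other liver. All 8 skeletal muscle genes were likewise high in that liver, at 1766 CPM together with Acta1 leading, against 2.86 or less elsewhere. The 8 genes of squamous epithelium, 6 of them keratins and Krt4 leading, summed to 395 CPM in GB-IL liver 1, 32.0 in GB-IL liver 2 and 0.799 or less in the rest. Acinar cells hold very much rough ER, so calls lost without GB-IL liver 1 are given with and without it. The part of this RNA in the results was not tested.

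GB-IL livers 1 and 2 also stood apart as whole libraries. On the first principal component of log2 CPM, which held 48.5% of the variance, they lay at -134 and -106 and the other 12 livers between -20.1 and 45.7. Mitochondrially encoded genes, led by mt-Co1, summed to 39164 and 34383 CPM of the total count in GB-IL livers 2 and 3 and to between 55053 and 92725 in the other 12. Patterns in which GB-IL livers 1 and 2 differ from the rest, such as those of Atf4, Xbp1, Ern1 and Ppp1r15a, therefore come from libraries that differ in many genes, and their source was not tested.

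Markers of leukocytes and bile ducts also differed between livers. A gene named as leading a list was the most abundant over all livers together and did not always lead in each. The 8 neutrophil genes, led by S100a9, summed to 114, 51.5, 343 and 6.70 CPM of the total count in GB-IL livers 1 to 4, to 124 in RYGB liver 5 and to 12.8 or less in the other 9 livers. Ly6g, their defining marker, had 2, 1, 15 and 0 counts in the GB-IL livers, 5 in RYGB liver 5, and 0 in all 5 DIO livers. Cholangiocyte genes, led by Spp1, summed to 314, 255, 221 and 72.4 CPM in the GB-IL livers, 47.7 to 76.4 in DIO and 75.8 to 95.9 in RYGB. GB-IL livers 1 to 3 were thus high in both lists and GB-IL liver 4 lay within the range of the DIO livers. Macrophage genes, with Cd5l the most abundant over all livers together but not in each, ran from 813 to 2188 CPM in GB-IL, from 393 to 698 in DIO and from 449 to 1067 in RYGB. The plasma cell list, led by Sdc1, which hepatocytes also express, summed to 598, 369, 605 and 235 CPM in the GB-IL livers, 209.6 to 315 in DIO and 212 to 457 in RYGB. In whole liver, fewer cells of a type and less RNA per cell cannot be told apart. The part of these cell types in the results below was not tested.

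**Figure D1:**
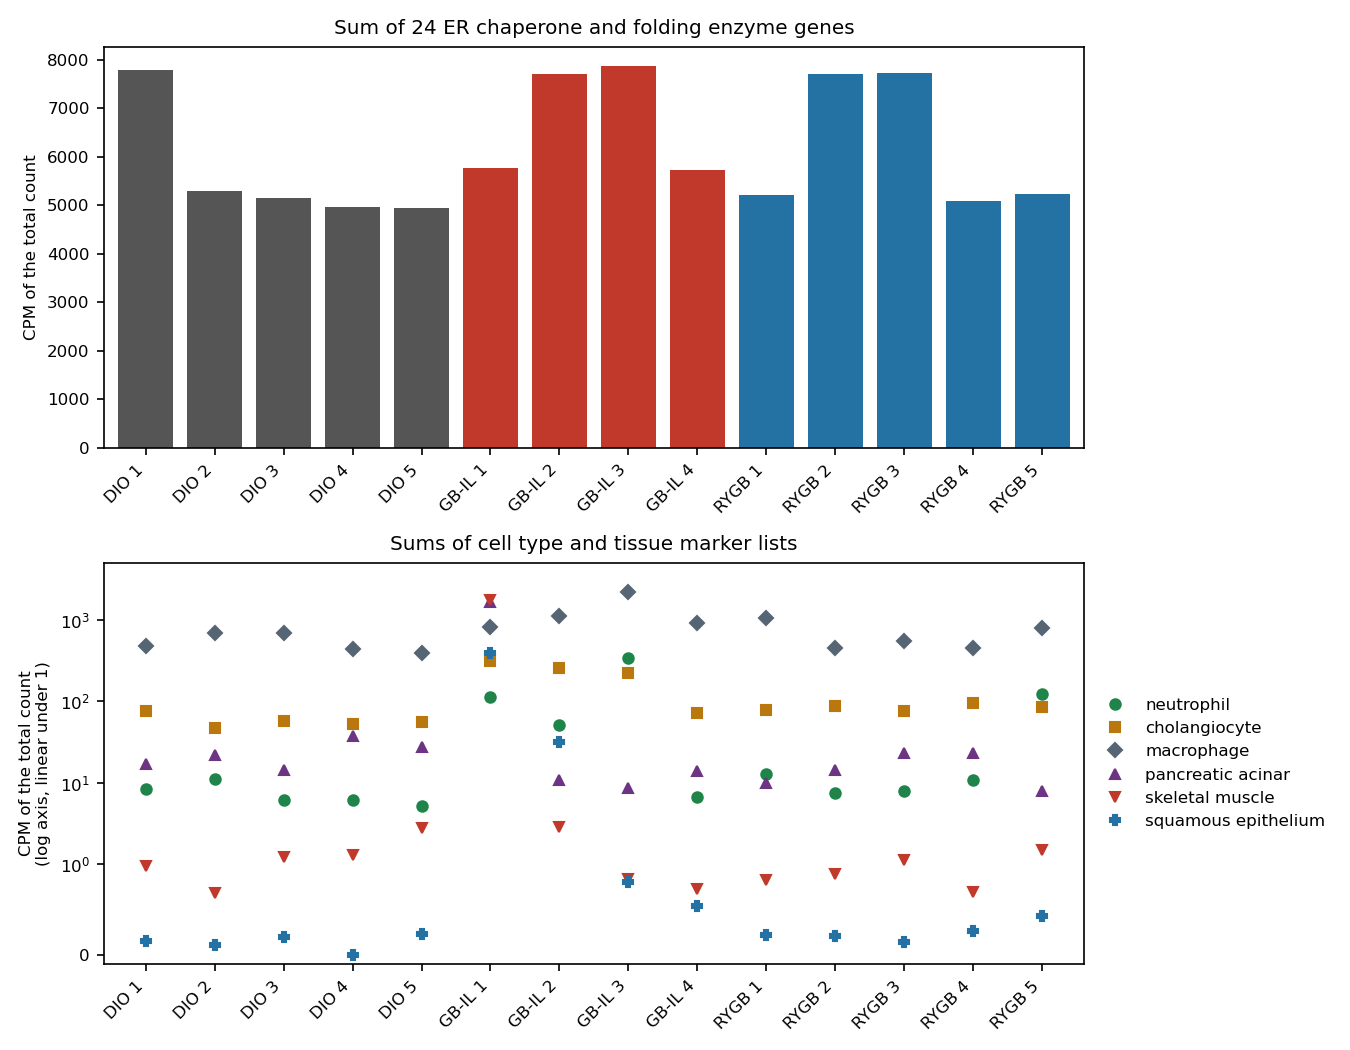
Upper plot: the summed level of 24 ER chaperone and folding enzyme genes in each liver, as CPM of the total count, with bars from 0 coloured by group. Lower plot: summed levels of 6 marker lists in each liver on a log axis that is linear under 1 CPM. The acinar and muscle lists reach 1658 and 1766 CPM in GB-IL liver 1 only, and the chaperone sum is 7704 CPM or more in 5 livers spread over the 3 groups.

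The first question was which of the 10 mRNAs differ after bile diversion to the ileum. In GB-IL against DIO, 1 of the 10 genes, Atf3, passed an FDR of 0.05 by the edgeR quasi-likelihood test with Benjamini-Hochberg adjustment, where 465 of 14252 genes (3.26%) did. An unadjusted p under 0.05 was reached by 5 of the 10 genes and by 23.1% of all genes. All 10 fitted log2 fold changes were above 0, with a median of 1.00 against 0.04 over all genes tested (0.54 with limma voom). Those of Herpud1, Dnajb9 and Ddit3 turned below 0 in some alternative fits. Atf3 was also the 1 gene of the 10 whose GB-IL livers did not overlap the DIO livers, a separation shown by 4.17% of all genes. The calls depended on single livers. Without GB-IL liver 1, GB-IL liver 2 or any 1 of the 5 DIO livers, 0 of the 10 genes and 0 of all genes tested passed, and without GB-IL liver 4, 5 of the 10 and 3572 of all 14492 genes (24.6%) did. DESeq2 called 3 of the 10 genes (Atf3, Atf4 and Trib3) beside 9.07% of all genes, and limma voom with sample weights called 0 beside 4.13%.

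The second question was the same for gastric bypass, against the same DIO livers. In RYGB against DIO, 0 of the 10 genes and 0 of all genes (0%) passed the edgeR quasi-likelihood test. Unadjusted p-values under 0.05 were found for 3 of the 10 genes, Atf3, Trib3 and Herpud1, and for 1241 genes in all (8.71%). DESeq2 called 97 genes (0.681%) and the edgeR exact test 44 (0.309%), none of them among the 10. Limma voom with sample weights called 1690 (11.9%), among them 2 of the 10, Atf3 and Herpud1. The 10 genes were higher in 7 and lower in 3 cases, with a median log2 fold change of 0.14 against 0.01 over all genes. That median rested on DIO liver 1, without which it was 0.68, and it was 0.49 with limma voom. Atf3 was again the single one without overlap between the groups, beside 3.53% of all genes.

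Compared directly, GB-IL against RYGB gave 0 of the 10 genes and 0 of all genes (0%) by the edgeR quasi-likelihood test. At an unadjusted p under 0.05 there were 3 of the 10 genes, Xbp1, Herpud1 and Creld2, and 3147 genes in all (22.1%). DESeq2 called 845 genes (5.93%) with Herpud1 among them (adjusted p = 0.0384). The exact test called 681 (4.78%) and limma voom with sample weights 115 (0.807%), with none of the 10 in the latter pair. Herpud1 was the 1 gene of the 10 without overlap, beside 2.84% of all genes. Without GB-IL liver 4 the edgeR quasi-likelihood test called Creld2 (log2 fold change 1.55, adjusted p = 0.0451) and Xbp1 (0.69, adjusted p = 0.0251) here. These were 2 of the 10 genes, beside 3120 of all 14492 genes (21.5%), so the share called was near that of all genes.

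**Figure D2:**
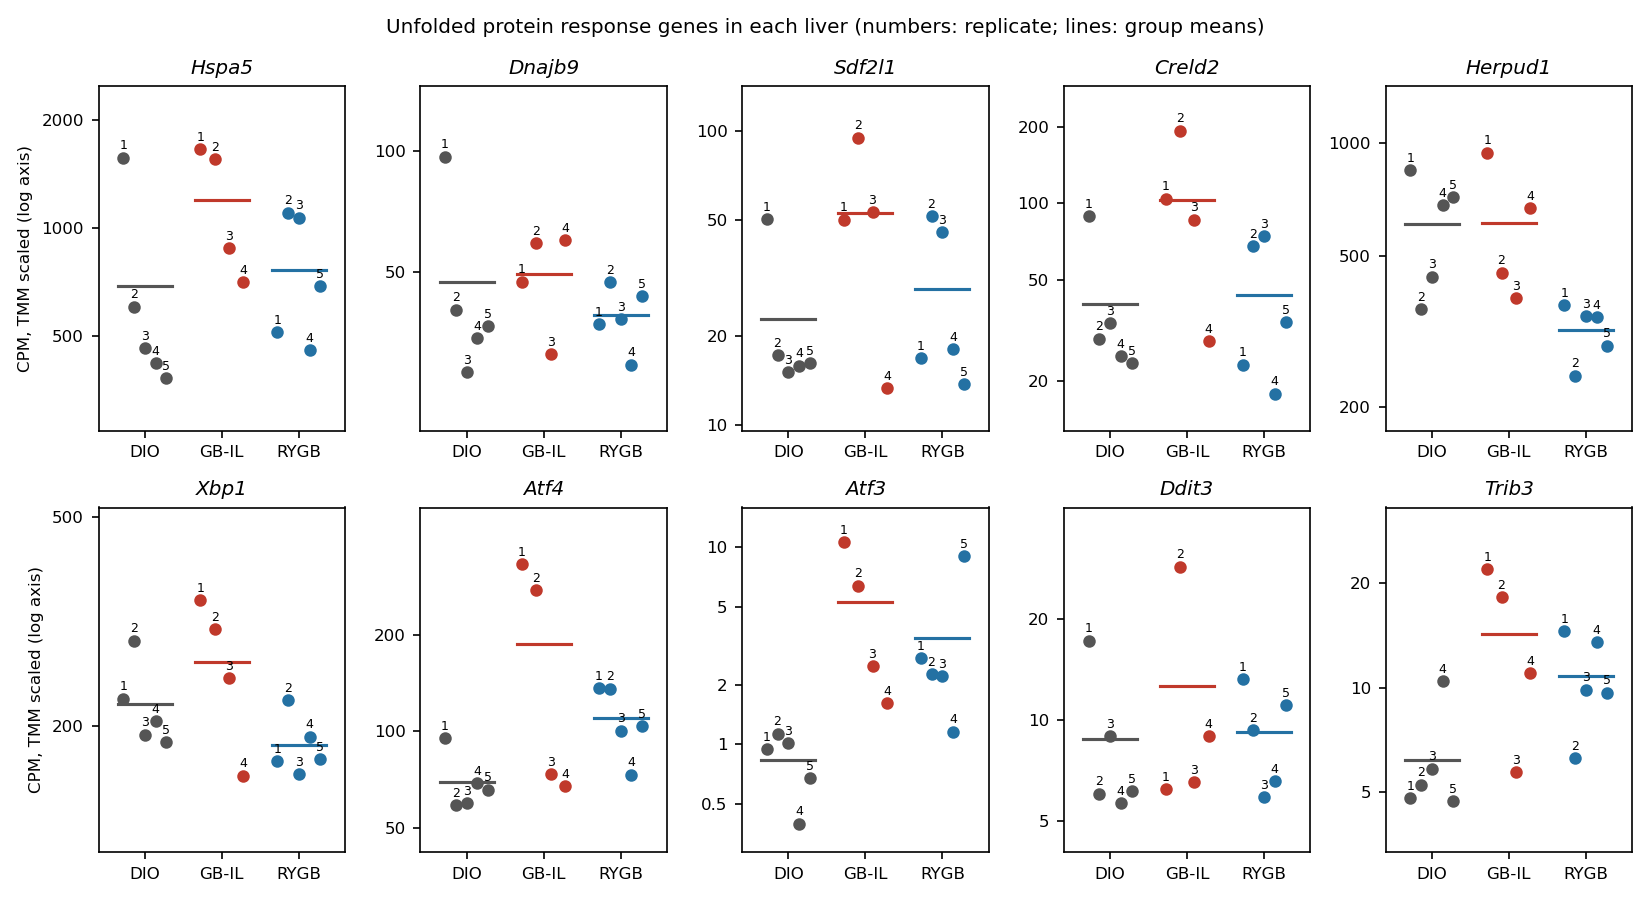
Level of each of the 10 genes in each liver, in CPM after TMM scaling on log axes, with replicate numbers beside the points and a line at each group mean. Atf3 is higher in all 9 operated livers (1.16 to 10.6 CPM) than in the 5 DIO livers (0.396 to 1.13 CPM), while DIO liver 1 lies far above the other DIO livers for Hspa5, Dnajb9, Sdf2l1 and Creld2.

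Hspa5 (ENSMUSG00000026864, GRCm38 chr2:34771970-34777547, plus strand) encodes BiP, the main HSP70 chaperone of the ER lumen, which binds nascent chains and holds the stress sensors inactive. Its levels in DIO livers 1 to 5 were 1575, 605, 464, 421 and 381 CPM. GB-IL livers 1 to 4 had 1662, 1556, 879.9 and 707 CPM, and RYGB livers 1 to 5 had 513, 1106, 1072, 457 and 690.2 CPM. All 4 GB-IL livers exceeded 4 of the 5 DIO livers, and DIO liver 1 lay between GB-IL livers 1 and 2, so that the groups overlapped through that liver. RYGB livers 2 and 3 were about level with each other and above the other RYGB livers. The group means were 689 ± 502 (n = 5), 1201 ± 478 (n = 4) and 768 ± 306 CPM (n = 5). GB-IL against DIO gave a log2 fold change of 0.80 (SE 0.44, edgeR quasi-likelihood adjusted p = 0.277), and 1.36 (adjusted p = 0.0816) without DIO liver 1. Leaving out GB-IL liver 1 instead gave 0.60 (adjusted p = 0.565). RYGB against DIO gave 0.16 (SE 0.42), and 0.72 without DIO liver 1. Neither difference passed the test.

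Sdf2l1 (ENSMUSG00000022769, chr16:17130138-17132383, minus strand) encodes an ER lumenal protein that works with BiP and its J-domain cofactors. It had 50.1, 17.3, 15.1, 15.9 and 16.2 CPM in the DIO livers, 50.1, 95.3, 52.9 and 13.3 CPM in GB-IL and 16.8, 51.4, 45.4, 18.1 and 13.7 CPM in RYGB. A set of 6 livers stood at 45 CPM or more, namely DIO 1, GB-IL 1, 2 and 3 and RYGB 2 and 3, and the other 8, GB-IL liver 4 among them, lay between 13.3 and 18.1 CPM with nothing in between. Creld2 (ENSMUSG00000023272, chr15:88819646-88826683, plus strand), which encodes an EGF-domain protein of the ER with disulfide isomerase activity, had 88.7, 29.4, 33.8, 25.1 and 23.5 CPM in DIO, 104, 193, 86.2 and 28.7 CPM in GB-IL and 23.2, 68.0, 74.3, 17.8 and 34.1 CPM in RYGB. The same 6 livers were the highest for Creld2. In GB-IL against DIO the log2 fold change was 1.21 for Sdf2l1 (SE 0.54, edgeR quasi-likelihood adjusted p = 0.201) and 1.36 for Creld2 (SE 0.55, adjusted p = 0.163). Neither passed with all livers, and both did without GB-IL liver 4, at 1.52 (adjusted p = 0.0377) and 1.66 (adjusted p = 0.0313). In that fit 24.6% of all genes passed. Without GB-IL liver 2 the values were 0.74 and 0.85. For RYGB against DIO the log2 fold changes were 0.34 and 0.12, and 0.85 and 0.64 without DIO liver 1. Sdf2l1 had 0.04 without RYGB liver 2, and Creld2 turned to -0.16 without RYGB liver 3 and to values between that and 0 without RYGB liver 2, DIO liver 4 or DIO liver 5.

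Dnajb9 (ENSMUSG00000014905, chr12:44205559-44210326, minus strand) encodes ERdj4, a J-domain cofactor of BiP that also represses IRE1. Its levels were 97.0, 40.2, 28, 34.2 and 36.6 CPM in DIO, 47.2, 59.0, 31.1 and 59.9 CPM in GB-IL and 37.0, 47.1, 38.1, 29.3 and 43.4 CPM in RYGB. DIO liver 1 was the highest of all 14, GB-IL livers 4, 2 and 1 came next, the last just above RYGB liver 2, and GB-IL liver 3 lay among the DIO and RYGB livers. Neither fitted difference exceeded its error, with log2 fold changes of 0.06 (SE 0.32) for GB-IL against DIO and -0.28 (SE 0.30) for RYGB against DIO. Without DIO liver 1 these became 0.50 and 0.17.

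Herpud1 (ENSMUSG00000031770, chr8:94386438-94395377, plus strand) encodes an ER membrane protein of the machinery that degrades misfolded ER proteins. DIO livers had 846, 362, 442, 683 and 717 CPM, GB-IL livers 942, 453, 388 and 670.2 CPM, and RYGB livers 372, 242, 347, 346 and 291 CPM. The RYGB livers were low and close together, below every GB-IL liver and, apart from RYGB liver 1, below every DIO liver. The group means were 609.9 ± 201, 613 ± 250.0 and 319.5 ± 52.6 CPM. The log2 fold change was -0.93 for RYGB against DIO (SE 0.28, edgeR quasi-likelihood adjusted p = 0.402, unadjusted p = 0.00505 in the same fit) and 0.94 for GB-IL against RYGB (SE 0.30, adjusted p = 0.118). GB-IL and DIO differed by 0.01 (SE 0.30). Under the other tests the RYGB difference passed with limma voom and sample weights (log2 fold change -1.04, adjusted p = 0.00754) and not with DESeq2 (adjusted p = 0.0974). Of all genes, 11.9% passed there with limma voom and 0.681% with DESeq2.

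Xbp1 (ENSMUSG00000020484, chr11:5520659-5525893, plus strand) is the mRNA that IRE1 cuts and encodes the transcription factor XBP1. It had 226, 291, 193, 204 and 187 CPM in DIO, 348, 306, 247 and 161 CPM in GB-IL and 172, 224, 162, 191 and 173 CPM in RYGB. GB-IL livers 1 and 2 were the highest and GB-IL liver 4 was the lowest of all 14. Xbp1 differed by a log2 fold change of 0.27 (SE 0.22, edgeR quasi-likelihood adjusted p = 0.450) in GB-IL against DIO and by -0.26 (SE 0.21, adjusted p = 0.761) in RYGB against DIO. The first was 0.11 (adjusted p = 0.833) without GB-IL liver 1 and 0.44 (adjusted p = 0.109) without GB-IL liver 4, and the second was -0.13 without DIO liver 2.

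Atf4 (ENSMUSG00000042406, chr15:80255184-80257541, plus strand) encodes the transcription factor at the end of the PERK arm, which also serves the other eIF2alpha kinases. Its levels were 95.4, 58.9, 59.9, 69.0 and 65.9 CPM in the DIO livers, 331, 274, 73.5 and 67.5 CPM in GB-IL and 136, 136, 101, 73.3 and 104 CPM in RYGB. GB-IL livers 1 and 2 stood far above all others, GB-IL livers 3 and 4 lay among the DIO livers, and 4 of the 5 RYGB livers were above every DIO liver. GB-IL against DIO gave a log2 fold change of 1.42 (SE 0.41, edgeR quasi-likelihood adjusted p = 0.0684), and RYGB against DIO 0.65 (SE 0.39, adjusted p = 0.659). Neither passed. The first was 0.99 (adjusted p = 0.256) without GB-IL liver 1 and 1.16 (adjusted p = 0.200) without GB-IL liver 2, and it passed without GB-IL liver 3 (1.69, adjusted p = 0.0324), without GB-IL liver 4 (1.69, adjusted p = 0.00613) and with DESeq2 (1.43, adjusted p = 0.0148). With limma voom it did not (0.57, adjusted p = 0.436). Of all genes, 3.99% passed without GB-IL liver 3, 24.6% without GB-IL liver 4 and 9.07% with DESeq2.

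Atf3 (ENSMUSG00000026628, chr1:191170296-191218039, minus strand) encodes a stress-induced repressor of the ATF family that lies downstream of ATF4 and is also an immediate early gene of injury and inflammation. It was scarce, with 0.942, 1.13, 1.02, 0.396 and 0.673 CPM in DIO livers 1 to 5, which were 18, 23, 20, 7 and 14 counts. GB-IL livers 1 to 4 had 10.6, 6.38, 2.50 and 1.62 CPM, and RYGB livers 1 to 5 had 2.73, 2.27, 2.22, 1.16 and 9.0 CPM. Each of the 9 operated livers was above each DIO liver, by a narrow margin in RYGB liver 4, and the highest were GB-IL livers 1 and 2 and RYGB liver 5. Atf3 rose 6.26-fold in GB-IL against DIO, a log2 fold change of 2.65 (SE 0.63, edgeR quasi-likelihood adjusted p = 0.0365), higher in 4 of 4 livers than in any DIO liver. In RYGB against DIO the log2 fold change was 2.06 (SE 0.60, adjusted p = 0.383), and 1.33 (adjusted p = 0.848) without RYGB liver 5. GB-IL and RYGB differed by 0.59 (SE 0.58, adjusted p = 0.544), so the 2 operations were not shown to differ for Atf3. The GB-IL call was lost without GB-IL liver 1 (2.05, adjusted p = 0.132) and without GB-IL liver 2 (2.53, adjusted p = 0.0840). Leaving out DIO livers 1 to 5 in turn gave 2.70, 2.79, 2.73, 2.48 and 2.58, with adjusted p-values of 0.0801, 0.0823, 0.0793, 0.0993 and 0.102.

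The neutrophil list was high in 4 livers, GB-IL 1, 2 and 3 and RYGB 5, of which 3 were also the highest for Atf3, while GB-IL liver 3 had the highest neutrophil sum (343 CPM) with 2.50 CPM of Atf3. Immediate early genes other than Atf3, 17 of 20 of which could be tested, had 4 called higher and 0 lower in GB-IL against DIO, beside 3.26% of all genes, with a median log2 fold change of 1.63. DESeq2 called 11 of the 17 beside 9.07% of all genes, and limma voom 0 beside 4.13%, with a median of 0.65. The 4 were Ier3 (log2 fold change 4.24), an inhibitor of apoptosis, Btg2 (3.22), an antiproliferative gene, Klf6 (1.99), a zinc-finger factor of injury, and Nr4a1 (1.95), an orphan nuclear receptor. The summed level of the list, with Zfp36 its most abundant gene over all livers together and Btg2 in GB-IL liver 1, was 1373, 685, 294 and 316 CPM of the total count in GB-IL livers 1 to 4, 202 to 313 in DIO and 240.3 to 583 in RYGB. Without GB-IL liver 1 none of the 4 passed, at 3.56, 2.17, 1.43 and 1.63 in the same order (adjusted p = 0.0799, 0.123, 0.139 and 0.140). In RYGB against DIO, 0 of the 17 passed by edgeR, 0 by DESeq2 and 3 by limma voom with sample weights (11.9% of all genes), 3 had an unadjusted p under 0.05 (8.71% of all genes), and Egr1 (log2 fold change 1.84) had the second smallest p after Nr4a1 (1.49). How far these genes share the source of the Atf3 values was not tested.

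Ddit3 (ENSMUSG00000025408, chr10:127290774-127296288, plus strand) encodes CHOP, the factor of prolonged stress and cell death that ATF4 induces. Its levels were 17.3, 6.05, 8.96, 5.66 and 6.15 CPM in DIO, 6.25, 28.7, 6.53 and 8.96 CPM in GB-IL and 13.3, 9.37, 5.91, 6.58 and 11.1 CPM in RYGB. One liver was high in each of DIO and GB-IL, DIO liver 1 and GB-IL liver 2, and the rest of the 3 groups overlapped. The log2 fold change of 0.51 (SE 0.46, edgeR quasi-likelihood adjusted p = 0.489) in GB-IL against DIO turned to -0.29 without GB-IL liver 2. RYGB against DIO gave 0.07 (SE 0.44). GB-IL liver 1, with the highest Atf4 level of all livers, had one of the lower Ddit3 levels. The annotated exons of Ddit3 share 68 bases (3.97% of its exon bases) with the Mars gene on the other strand and 105 bases (6.13%) with a second Ddit3 gene model on the same strand. Whether the counts used strand is not given in the sources used here.

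Trib3 (ENSMUSG00000032715, chr2:152337422-152344032, minus strand) encodes a pseudokinase that ATF4 and CHOP induce and that binds AKT. DIO livers had 4.82, 5.27, 5.85, 10.4 and 4.71 CPM, GB-IL livers 21.9, 18.2, 5.73 and 11 CPM, and RYGB livers 14.5, 6.26, 9.86, 13.5 and 9.66 CPM. GB-IL livers 1, 2 and 4 lay above every DIO liver, and DIO liver 4 was the single DIO liver within the upper range of the operated ones. GB-IL against DIO gave a log2 fold change of 1.19 (SE 0.36, edgeR quasi-likelihood adjusted p = 0.0829), and RYGB against DIO 0.79 (SE 0.35, adjusted p = 0.547), neither past the threshold. The first was 0.90 (adjusted p = 0.274) without GB-IL liver 1, and it passed without GB-IL liver 3 (1.45, adjusted p = 0.0324), without GB-IL liver 4 (1.29, adjusted p = 0.0294), with DESeq2 (1.20, adjusted p = 0.0296) and with the edgeR exact test (1.19, adjusted p = 0.0294). With limma voom it did not (0.51, adjusted p = 0.600). Of all genes, 3.99% passed without GB-IL liver 3, 24.6% without GB-IL liver 4, 9.07% with DESeq2 and 7.92% with the exact test.

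**Figure D3:**
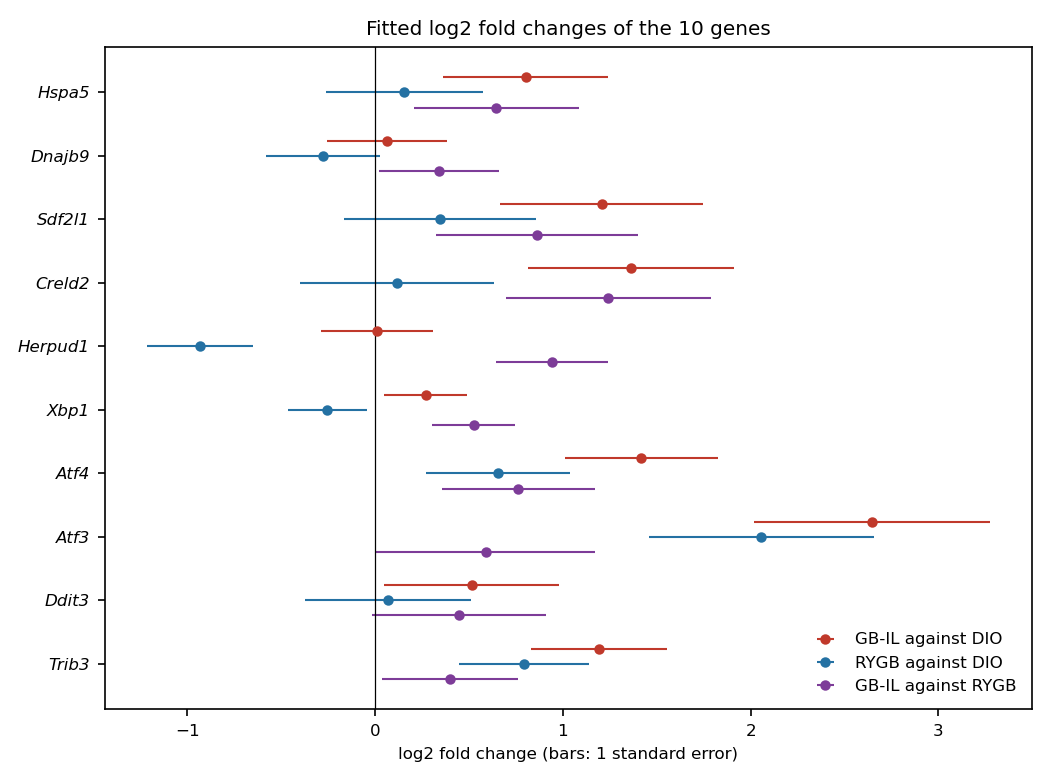
Fitted log2 fold changes of the 10 genes in the 3 comparisons, with bars of 1 standard error on a linear axis. For GB-IL against DIO the points run from 0.01 (Herpud1) to 2.65 (Atf3), and for RYGB against DIO from -0.93 (Herpud1) to 2.06 (Atf3).

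Per kilobase of annotated exon, which allows genes to be set beside each other, the DIO means ran from 261 CPM per kb for Herpud1 and 163 for Hspa5 through 67.8 for Xbp1, 29.6 for Atf4, 29.3 for Creld2, 20.7 for Sdf2l1, 18.5 for Dnajb9, 5.15 for Ddit3 and 2.92 for Trib3 to 0.386 for Atf3. Atf4 and Creld2 did not differ beyond their spread, nor did Sdf2l1 and Dnajb9. In GB-IL the first places were Hspa5 with 284 and Herpud1 with 263 CPM per kb, which likewise overlapped. In RYGB Hspa5 had 182 and Herpud1 137. Hspa5 and Herpud1 thus had the highest means per kilobase in each group, and Ddit3, Trib3 and Atf3 had the lowest.

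Spread within a group differed between the genes. Among the DIO livers, the SD of log2 CPM was 0.83 for Hspa5, larger than for 95.9% of the genes tested, and 0.26 for Xbp1, larger than for 40.7%, where the median gene had 0.29. In GB-IL the median gene itself had an SD of 0.57, and the largest spreads were those of Atf4 (1.22), Atf3 (1.21) and Sdf2l1 (1.20). In RYGB, Atf3 (1.05) had a larger SD than 97.1% of genes, and Creld2 and Sdf2l1 had larger ones than 95.7% and 95.1%. Without the liver farthest from its group's median, the SD in DIO was 0.29 for Hspa5 (without DIO liver 1) and 0.12 for Xbp1 (without DIO liver 2). In the same way the SD was 0.51 for Atf3 in RYGB (without RYGB liver 5) and 0.51 for Sdf2l1 in GB-IL (without GB-IL liver 4). The highest DIO liver had 4.13 times as much Hspa5 as the lowest.

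Hspa5, Creld2 and Sdf2l1 had the highest r of all pairs among the 10 genes. After subtraction of each group's mean, the log2 CPM of Hspa5 had a Pearson r of 0.90 with Creld2 (Spearman rho 0.92), of 0.82 with Sdf2l1 (rho 0.79) and of 0.72 with Dnajb9 (rho 0.45) over the 14 livers, and Sdf2l1 and Creld2 had an r of 0.93. The Dnajb9 value rested in part on DIO liver 1, without which it was 0.48, while Creld2 kept 0.89 and Sdf2l1 0.78. Dnajb9 had an r of 0.38 with Sdf2l1 and 0.47 with Creld2 (0.09 and 0.22 without DIO liver 1). With the other genes Hspa5 had an r of 0.63 (Atf4), 0.52 (Xbp1), 0.45 (Atf3), 0.42 (Ddit3), 0.15 (Herpud1) and -0.07 (Trib3). Without DIO liver 1 the r with Ddit3 was 0.17, that with Herpud1 turned to -0.13 and that with Trib3 to 0.03. Atf4 had an r of 0.65 with Atf3 and with Xbp1, 0.62 with Creld2, 0.57 with Sdf2l1, 0.52 with Trib3 and 0.44 with Ddit3, the last being 0.74 without GB-IL liver 1. These r values describe livers that share a scaling, and no test was made of them.

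The 8 genes most like Hspa5 in this measure, among 12695 genes with a mean of at least 1 CPM, were Manf (r = 0.95), Hyou1 (0.91), Dnajb11 (0.90), Creld2 (0.90), Slc35b1 (0.89), Stt3b (0.89), Syvn1 (0.88) and Hnrnpa3 (0.88). Manf encodes a secreted ER stress factor, Hyou1 an ER chaperone of the HSP110 family, Dnajb11 a BiP cofactor, Slc35b1 a nucleotide transporter of the ER membrane, Stt3b a catalytic subunit of oligosaccharyltransferase, Syvn1 the ubiquitin ligase HRD1 and Hnrnpa3 an RNA-binding protein. Without DIO liver 1 and RYGB liver 2, the livers farthest from the median, the r of these 8 lay between 0.77 and 0.93. Manf illustrates the pattern, with 200.3 CPM in DIO liver 1 and 35.7 to 66.5 CPM in the other DIO livers, 297, 436, 134 and 73.0 CPM in GB-IL, and 150.1 and 120.0 CPM in RYGB livers 2 and 3 against 46.7 to 77.1 CPM in the other RYGB livers. DIO liver 1, GB-IL livers 1 and 2 and RYGB livers 2 and 3 were thus high within their own groups.

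Ddit3 had other companions. The 8 genes most like it were Dnajb1 (r = 0.92), a cytosolic HSP40, Wrb (0.91), which inserts tail-anchored proteins into the ER, the ubiquitin ligase gene Siah2 (0.89), the leucyl-tRNA synthetase gene Lars (0.89), Gt(ROSA)26Sor (0.88), Gm26917 (0.87), Smim11 (0.86) and Sertad3 (0.85). Without GB-IL liver 2 and DIO liver 1, the r of Dnajb1 was 0.72, and those of the 8 lay between 0.62 (Siah2) and 0.80 (Sertad3). Sertad3 had the highest rho of the 8 (0.91).

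Promoters were searched for the known elements of ER stress genes. All 10 genes were found in the RefSeq promoter table (build GRCm38.p6), which covers 250 bases before to 50 after each start. The ER stress response element (ERSE) was searched as CCAAT, 9 bases of any kind and CCACG, and its second form (ERSE-II) as ATTGG, any base and CCACG, on both strands. The first was in 39 of 32851 promoters (0.119%) and the second in 12 (0.0365%). Among the 10 genes, Hspa5 and Creld2 held the first and Herpud1 the second. Of the 8 genes most like Hspa5, 4 held either form (Dnajb11, Creld2, Syvn1 and Hnrnpa3), beside 51 of all promoters (0.155%). Of the 25 other tested genes with either form that were matched by symbol, 9 (36.0%) had an r above 0.5 with Hspa5. Of all 14251 other genes tested, 4.36% had one, and the medians were 0.38 and -0.03. Ero1b, which holds the first form, is named Ero1lb in the count table and was therefore not counted among the 25. Herpud1, with an r of 0.15, and Canx, with -0.01, hold the letters too. The matches are printed because they set the genes that moved with Hspa5 beside Herpud1, with capitals for the fixed letters of the element, each on the strand on which it reads.
Hspa5, ERSE, chr2:34772020-34772048, plus strand: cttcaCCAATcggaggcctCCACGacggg
Creld2, ERSE, chr15:88819515-88819543, minus strand: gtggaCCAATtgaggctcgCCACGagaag
Hsp90b1, ERSE, chr10:86705633-86705661, minus strand: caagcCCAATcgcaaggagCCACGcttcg
Hsp90b1, ERSE, chr10:86705528-86705556, plus strand: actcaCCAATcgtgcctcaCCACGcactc
Syvn1, ERSE, chr19:6046527-6046555, plus strand: cgcaaCCAATcggcggtagCCACGggaac
Dnajb11, ERSE-II, chr16:22857847-22857867, plus strand: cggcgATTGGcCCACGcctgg
Herpud1, ERSE-II, chr8:94386372-94386392, plus strand: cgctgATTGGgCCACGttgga

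In Hspa5 the element lies at bases -65 to -47 from the RefSeq start, and in Creld2 at -126 to -108 on the strand opposite the gene. The gene coordinates given above can begin at another start, and the Hspa5 match lies inside them. Hsp90b1, which encodes the ER chaperone GRP94 and holds 2 copies, had 1204 CPM in DIO liver 1 and 555 to 641 CPM in the other DIO livers, an r of 0.85 with Hspa5. A match describes letters only, and Sdf2l1, whose r with Hspa5 was 0.82, had neither form in this window.

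The element of C/EBP and ATF4 (CARE) was searched as TGATG, any base and AA on both strands and was in 1304 of 32851 promoters (3.97%), among them those of Atf3, Trib3 and Herpud1 but not those of the other 7 genes. Of the 34 known targets of ATF4 and CHOP listed, 7 held it. Asns, the asparagine synthetase gene, was the 1 of these 7 called in GB-IL against DIO, beside 3.26% of all genes. That call was lost without GB-IL liver 1, as given below. The log2 fold changes of the others there were 2.42 (Slc7a11), 1.69 (Nupr1), 0.21 (Slc1a4), -0.53 (Chac1), -0.72 (Vldlr) and -1.09 (Fgf21). Single livers stood far from the others of their group. Fgf21 had 9.94 CPM in DIO liver 1 (others 1.77 to 3.22) and 5.50 in GB-IL liver 4 (others 0.210 to 0.891). Vldlr had 11.4 CPM in GB-IL liver 4 (others 0.975 to 4.15), Nupr1 14.1 in GB-IL liver 1 (others 2.21 to 6.53) and Slc1a4 12.8 in DIO liver 1 (others 1.98 to 6.61). The Atf3 match lies at bases -110 to -103 from the RefSeq start used, which is inside the gene coordinates given above and far from their start. In Trib3 the match lies after the RefSeq start, at bases 15 to 22. Matches of the CARE in the 3 of the 10 genes are printed to show the element, with Asns as an example from the list.
Atf3, CARE, chr1:191183431-191183448, plus strand: cttggTGATGcAAgtgcg
Trib3, CARE, chr2:152344034-152344051, plus strand: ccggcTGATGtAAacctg
Herpud1, CARE, chr8:94386312-94386329, minus strand: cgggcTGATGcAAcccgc
Asns, CARE, chr6:7693220-7693237, minus strand: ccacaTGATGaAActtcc

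Beyond the 10 genes, the sensors themselves were not called with all livers. Of 7 genes for sensors and their proteases, 6 could be tested and 0 passed in GB-IL against DIO or RYGB against DIO by edgeR, DESeq2 or limma voom. In the same order, 3.26%, 9.07% and 4.13% of all genes passed in GB-IL against DIO and 0%, 0.681% and 11.9% in RYGB against DIO. At an unadjusted p under 0.05 there were 1 and 0 of the 6 (23.1% and 8.71% of all genes). Ern1, which encodes IRE1alpha, had 11.3, 17.4, 44.1 and 46.1 CPM in the GB-IL livers, 33.5 to 91.9 CPM in DIO and 46.9 to 67.2 CPM in RYGB. GB-IL livers 1 and 2, the highest of all livers for Atf4 and Xbp1, were the lowest for Ern1 (log2 fold change -0.89 in GB-IL against DIO, SE 0.38, edgeR quasi-likelihood adjusted p = 0.180). Atf6 had means of 74.7 ± 14.3, 67.7 ± 20.9 and 79.3 ± 10.4 CPM in DIO, GB-IL and RYGB, and Eif2ak3, which encodes PERK, 15.1 ± 6.16, 18.3 ± 5.45 and 18.1 ± 8.84 CPM. Atf6b (0.37 and 0.33) and the protease gene Mbtps2 (0.19 and 0.24) had small log2 fold changes after either operation. Without GB-IL liver 4, Ern1 (-1.18, adjusted p = 0.0425) and Atf6b (0.53, adjusted p = 0.0434) were called in GB-IL against DIO, beside 24.6% of all genes, and 1 of the 6 genes in GB-IL against RYGB, beside 21.5%.

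The other eIF2alpha kinases and phosphatase subunits, 6 of 6 tested, had 0 called by the edgeR quasi-likelihood test in GB-IL against DIO or RYGB against DIO (3.26% and 0% of all genes). The edgeR exact test called 1 of the 6 in GB-IL against DIO, beside 7.92% of all genes. The largest difference among them was that of Ppp1r15a, the GADD34 gene, with 50.4, 36.7, 12.2 and 9.26 CPM in GB-IL and 8.90 to 13.2 CPM in DIO (log2 fold change 1.29, edgeR quasi-likelihood adjusted p = 0.0903). The value was 0.80 (adjusted p = 0.345) without GB-IL liver 1, and it passed without GB-IL liver 4 (1.57, adjusted p = 0.00757) and without GB-IL liver 3 (1.53, adjusted p = 0.0462). Of all genes, 24.6% and 3.99% passed without those livers, in the same order. Ppp1r15a was high in the same GB-IL livers as Atf4. The kinase gene Eif2ak1 (-0.17 and -0.18) and the phosphatase subunit gene Ppp1r15b (-0.21 and -0.08) differed little in GB-IL and RYGB from DIO, and DESeq2 called 1 and 0 of the 6 (9.07% and 0.681% of all genes), with 1 and 0 at an unadjusted p under 0.05 (23.1% and 8.71%).

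Among ER chaperones and folding enzymes, 1 of 24 rose in GB-IL against DIO, beside 3.26% of all genes, with a median log2 fold change of 0.22 over the list against 0.04 over all genes (0.39 without DIO liver 1). It was Dnajc10, the ERdj5 reductase gene, at 43.8, 41.3, 39.4 and 30.8 CPM in GB-IL and 20.9 to 27.5 CPM in DIO (log2 fold change 0.73, SE 0.16, edgeR quasi-likelihood adjusted p = 0.0310). All 4 GB-IL livers lay above all DIO livers, as did 4 of 5 RYGB livers (0.48, adjusted p = 0.422), and without GB-IL liver 1 the GB-IL value was 0.66 (adjusted p = 0.0851). For Manf the value was 1.54 (adjusted p = 0.137), and 1.83 (adjusted p = 0.0294) without GB-IL liver 4, when 5 of the 24 and 24.6% of all genes passed. The summed level of the 24 genes, with P4hb the most abundant over all livers together, was 7787 CPM of the total count in DIO liver 1, 7712 and 7869 in GB-IL livers 2 and 3, and 7704 and 7732 in RYGB livers 2 and 3. The other 9 livers lay between 4949.8 and 5777 CPM, GB-IL liver 1 included, whose Hspa5 level was the highest of all. In RYGB against DIO 0 of the 24 passed by edgeR or DESeq2 and 2 by limma voom with sample weights (11.9% of all genes), 2 having an unadjusted p under 0.05 (8.71% of all genes), and Ero1l, an oxidase gene of the ER, differed by 0.81 on the log2 scale (adjusted p = 0.547). RYGB liver 5 held the high Ero1l level, 87.2 CPM, and without it the value was 0.18.

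Known targets of ATF4 and CHOP were examined next. Of 34 listed, 33 could be tested, and 2 rose and 0 fell in GB-IL against DIO, beside 3.26% of all genes called. An unadjusted p under 0.05 was reached there by 15 of them and by 23.1% of all genes. The median of 0.25 was 0.66 without DIO liver 1 and 0.58 without GB-IL liver 4, and 15 of the 33 passed without the latter, beside 24.6% of all genes. DESeq2 called 6 of the 33 (9.07% of all genes), the exact test 6 (7.92%) and limma voom 2 (4.13%). Asns had 43.1, 91.1, 18.3 and 0.295 CPM in GB-IL livers 1 to 4, 1.47, 1.67, 1.12, 1.08 and 0.433 CPM in DIO, and 6.56, 14.4, 13.2, 4.39 and 9.48 CPM in RYGB. GB-IL livers 1 to 3 lay far above the DIO livers, GB-IL liver 4 was the lowest of all 14, and the 5 RYGB livers were all above the 5 DIO livers. GB-IL against DIO gave a log2 fold change of 5.04 (SE 0.94, edgeR quasi-likelihood adjusted p = 0.0278), 4.99 (adjusted p = 0.0602) without GB-IL liver 1. RYGB against DIO gave 3.05 (adjusted p = 0.383). Slc7a1, a cationic amino acid transporter gene, had 11.2, 1.98, 1.19 and 0.959 CPM in GB-IL and 0.288 to 0.640 CPM in DIO. Its log2 fold change of 3.03 (adjusted p = 0.0310) was 1.55 (adjusted p = 0.0893) without GB-IL liver 1, which alone held the high level. Among the 33, RYGB against DIO gave 0 passing by edgeR, 1 by DESeq2 (0.681% of all genes) and 6 by limma voom (11.9%), and 8 had an unadjusted p under 0.05 (8.71%). The median was 0.25, and Mthfd2, a mitochondrial folate enzyme gene, had the smallest p (log2 fold change 1.31, adjusted p = 0.331), higher in 5 of 5 livers than in any DIO liver.

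Messages that IRE1 is known to cut for decay made a list of 7. All 7 had log2 fold changes above 0 in GB-IL against DIO (median 0.80, and 0.52 without GB-IL liver 1 or 0.49 with limma voom), and 2 rose, beside 3.26% of all genes, the myelin protein gene Pmp22 (1.16, edgeR quasi-likelihood adjusted p = 0.0310) and the scavenger receptor gene Scara3 (2.03, adjusted p = 0.0461). Pmp22 had 13.3, 6.44, 8.82 and 6.31 CPM in GB-IL and 2.93 to 4.73 CPM in DIO, without overlap. Neither passed without GB-IL liver 1 (0.87, adjusted p = 0.0845, and 1.41, adjusted p = 0.192). DESeq2 called 4 of the 7 (9.07% of all genes) and limma voom 1 (4.13%). For RYGB against DIO, 5 of the 7 were above 0 and 0 passed by edgeR, 0 by DESeq2 and 2 by limma voom (11.9% of all genes), with 3 at an unadjusted p under 0.05 (8.71%), led by Col6a1, a collagen gene (1.45, adjusted p = 0.383). The Col6a1 value was 0.72 without RYGB liver 5, which had 54.1 CPM against 9.54 to 16.8 CPM in the other RYGB livers. Several of these genes belong to fibroblasts and other stromal cells, whose 9 markers, led by Dcn, summed to 849, 256, 243 and 306 CPM of the total count in the GB-IL livers, 155 to 277 in DIO and 230.1 to 519 in RYGB, and their part in the result was not tested.

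The remaining ER lists gave 0 called genes by the edgeR quasi-likelihood test in either comparison with DIO when all livers were used (3.26% and 0% of all genes). The edgeR exact test called 1 gene of ER-associated degradation and 1 of the CREB3 family in GB-IL against DIO, beside 7.92% of all genes. Without GB-IL liver 4, the quasi-likelihood test called 5 genes of ER-associated degradation in GB-IL against DIO, among them Vimp (1.06, adjusted p = 0.00587), 8 of translocation and export, among them Sec61g (0.83, adjusted p = 0.0182), and Creb3l1 (1.72, adjusted p = 0.0236). In that fit 24.6% of all genes passed, beside 5 of 22 for degradation and 8 of 23 for translocation and export. For ER-associated degradation, 22 of 23 genes were in the table and tested, 5 had an unadjusted p under 0.05 in GB-IL against DIO (23.1% of all genes) and 0 in RYGB against DIO (8.71%), DESeq2 called 1 and 0 (9.07% and 0.681% of all genes), and limma voom 0 and 1 (4.13% and 11.9%). Vimp, for a selenoprotein of the retrotranslocation complex, had log2 fold changes of 0.87 (edgeR quasi-likelihood adjusted p = 0.0667) and 0.41, Ube2j2, a ubiquitin-conjugating enzyme gene, 0.83 (0.37 without GB-IL liver 1) and 0.10, and Aup1, a partner of HRD1, 0.21 and -0.30. For ER translocation and export, 23 of 24 were tested, 6 and 0 had an unadjusted p under 0.05, beside the same shares of all genes, and DESeq2 called 0 in both. Its named genes were the translocon subunit gene Sec61g (0.68 and 0.22), the signal peptidase genes Spcs1 (0.46 and -0.12) and Spcs2 (0.60 and 0.41), and Ssr1 (0.01 and 0.35). Of the CREB3 family of ER-bound factors, 4 of 5 were tested. Creb3l1 had 2.94 ± 2.16, 3.09 ± 1.47 and 0.976 ± 0.484 CPM in GB-IL, RYGB and DIO (1.58, adjusted p = 0.0754, and 1.66, adjusted p = 0.348), the first being 0.93 (adjusted p = 0.304) without GB-IL liver 1. The liver-enriched Creb3l3 had log2 fold changes of -0.40 and -0.59, with 1 and 1 of the 4 called by DESeq2 (9.07% and 0.681% of all genes), 0 and 2 by limma voom (4.13% and 11.9%), and 1 and 2 at an unadjusted p under 0.05 (23.1% and 8.71%).

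Heat shock genes outside the ER were 11 of the cytosol and the mitochondrial Hspe1 and Hspd1. All 13 had log2 fold changes below 0 in RYGB against DIO, with a median of -0.48 (-0.32 without DIO liver 1) against 0.01 over all genes, and 3 had an unadjusted p under 0.05. By edgeR 0 passed, by DESeq2 0 and by limma voom with sample weights 4, where 11.9% of all genes passed by limma voom and 8.71% had an unadjusted p under 0.05 by edgeR. Hspa1a had 0.0414 to 0.415 CPM in RYGB and 0.344 to 2.30 CPM in DIO, a difference of -1.78 (edgeR quasi-likelihood adjusted p = 0.547) on the log2 scale. DIO liver 1 alone held the 2.30 CPM, and without it the difference was -0.90. The chaperonin gene Hspe1 differed by -0.53 (adjusted p = 0.528). In GB-IL against DIO the median was 0.02, and the smallest p-values were those of Hspb8 (0.72, adjusted p = 0.178) and Dnaja1 (-0.65, adjusted p = 0.244), which were 0.37 and -0.38 without GB-IL liver 1. Both passed without GB-IL liver 4 (0.93, adjusted p = 0.0234, and -0.95, adjusted p = 0.0496), as did 24.6% of all genes. DIO liver 1 was again the highest of its group, with a sum of 3969.8 CPM of the total count against 2616 to 2852, with Hsp90ab1 leading.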

How the data were processed

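Total liver RNA was amplified, sequenced on the Illumina HiSeq, aligned to mm10 with TopHat2 and counted per gene with HTSeq. What the authors deposited is 1 count per gene and liver, not normalized. The submitters' processing notes list mm10 and hg19; their versions, the annotation and the use of strand were not found in the sources used here, and 2 library kits are named without assignment to livers. Counts of 14 livers were fitted together by group with edgeR 4.0.16 (R 4.3.3; filterByExpr by group, TMM, quasi-likelihood test, Benjamini-Hochberg FDR 0.05 over all 14252 genes), and the test was tried on simulated counts. SE is the log2 fold change divided by the root of F. Alternatives were other scalings, filters and tests (DESeq2 1.42.0, limma 3.58.1), 2-group fits, the replicate number as a block, and each liver left out. Levels between genes used exon lengths of GENCODE M21 (GRCm38). Named were all 10 genes, every called gene of each list up to 6, its 2 smallest p-values in each comparison with DIO, 3 sensors, the 8 genes most like Hspa5 or Ddit3, and leading markers; Hsp90b1, Canx, the targets named for the CARE and the printed promoters were chosen after values were seen. Members and lists were chosen with earlier results of these data known.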

Additional observations from a re-analysis of the deposited data

Results flagged for a closer look

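A gap test at the 95% level (Dixon) was run on CPM in 81 group-wise sets of values. The sets were the 10 genes and the list sums named here, in each group. In 19 of the 81 sets, 1 liver lay apart from the others of its group. Chance alone exceeds the level in about 1 set in 20 if values are normally distributed, which skewed CPM need not be. High values lie less far out in log2 CPM, on which the test was not run. Of the 19 sets, 9 concerned the 10 genes, and 6 of the 9 fell on DIO liver 1. That liver had 1575 CPM of Hspa5 against 381 to 605 CPM in the other DIO livers, 50.1 CPM of Sdf2l1 against 15.1 to 17.3, 88.7 CPM of Creld2 against 23.5 to 33.8, 97.0 CPM of Dnajb9 against 28 to 40.2, 17.3 CPM of Ddit3 against 5.66 to 8.96 and 95.4 CPM of Atf4 against 58.9 to 69.0. Its sums of the ER chaperones (7787 CPM of the total count against 4949.8 to 5298) and of the heat shock genes outside the ER (3969.8 against 2616 to 2852) stood apart too. The genes are not independent of each other, and the cause was not tested.

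Of the remaining values of the 10 genes, Trib3 in DIO liver 4 had 10.4 CPM against 4.71 to 5.85 in the other DIO livers, Ddit3 in GB-IL liver 2 had 28.7 CPM against 6.25 to 8.96, and Atf3 in RYGB liver 5 had 9.0 CPM against 1.16 to 2.73.

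Marker sums set 3 livers apart. GB-IL liver 1 had 1658 CPM of pancreatic acinar genes against 8.63 to 14 in the other GB-IL livers, 1766 CPM of skeletal muscle genes against 0.727 to 2.86, 395 CPM of squamous epithelium genes against 0.536 to 32.0 and 849 CPM of stellate cell and fibroblast genes against 243 to 306. Des, which skeletal muscle also expresses, is on the last list. RYGB liver 5 had 124 CPM of neutrophil genes against 7.55 to 12.8 in the other RYGB livers, 667 CPM of endothelial genes against 170.3 to 283 and 519 CPM of stellate cell and fibroblast genes against 230.1 to 311. GB-IL liver 4 had 16.8 CPM of adipocyte genes against 0.728 to 3.23.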

How the results depend on the processing

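For the 10 genes in GB-IL against DIO the count called (1) was 3 with DESeq2, 3 with the edgeR exact test, 0 with limma voom and sample weights, 0 in the 2-group fit, and 0 to 5 with 1 liver left out. All genes called there (465) became 1292, 1129, 589 and 0 in the same order, and 0 to 3572. In RYGB against DIO the 10 genes gave 2 with limma voom and 0 with every liver left out in turn, and all genes gave 97, 44, 1690 and 33, and 0 to 5. In GB-IL against RYGB the 10 genes gave 1 with DESeq2 and 0 to 2 with a liver left out, and all genes 845, 681 and 115, 51 without a filter, and 0 to 3120. Other scalings kept the called counts within 1.5 times, but with total counts 1 of the 10 genes, not 3, had an unadjusted p under 0.05 in GB-IL against RYGB. Total counts alone moved the all-gene median by -0.12 in GB-IL against RYGB. Some of these fits held fewer livers, and why the counts move was not tested.

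The replicate block gave 0 of the 10 genes and 1 of all genes in GB-IL against DIO, and 0 in the other comparisons. Deviations from the group means had correlations of -0.38 to 0.38 between livers with the same number, without a common sign. Whether the numbers pair the livers or mark a batch was not tested.

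Log2 fold changes of the 10 genes changed sign in 28 cases, each a single gene in a single comparison and alternative fit, and none of them a called value. For Herpud1 in GB-IL against DIO (0.01) they were -0.0178 with total counts, -0.445 with limma voom, -0.0170 without a filter and -0.28 to 0.17 with a liver left out. In GB-IL against RYGB, limma voom gave -0.0186 for Atf4 and -0.27 for Trib3. With a liver left out the ranges were -0.0101 to 1.33 for Atf3, -0.36 to 0.67 for Ddit3 in GB-IL against RYGB; -0.29 to 0.91 for Ddit3 and -0.0785 to 0.50 for Dnajb9 in GB-IL against DIO; and -0.16 to 0.64 for Creld2, -0.10 to 0.46 for Ddit3, -0.42 to 0.17 for Dnajb9 and -0.0116 to 0.72 for Hspa5 in RYGB against DIO. Low counts of Atf3 in DIO (7 to 23) limit the precision of its fold.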
